A study of Mus musculus with 9 samples.

Results

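Transcripts of the glucocorticoid receptor, of the enzymes that set its ligand in tissue and of genes of its response were followed in mouse hearts around birth. The 10 genes were set by their symbols (*Nr3c1*, *Nr3c2*, *Hsd11b1*, *Hsd11b2*, *Fkbp5*, *Tsc22d3*, *Zbtb16*, *Sgk1*, *Klf9* and *Klf15*), and all 10 were found among the 48820 genes of the deposited table.

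RNA-seq was performed on 9 whole-heart samples, 3 biological replicates at each of 3 stages, to follow gene expression from late gestation into the suckling period. The groups were hearts of embryonic day 18.5 (E18.5d), postnatal day 1 (P1d) and postnatal day 7 (P7d), all of strain C57BL/6J, genotype WT, labelled male and given no treatment. Levels are FPKM, the fragments of a gene divided by its length in kilobases and by the mapped fragments in units of 1e6. From the steps between low values, depth was 25.25 to 45.25 times 1e6 fragments per heart, so that 1 fragment on a kilobase was worth 0.0221 to 0.0396 FPKM. The labels do not say whether a replicate was 1 animal, and p-values measure the spread between these samples.

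In 4 hearts the sex label was at odds with the transcripts. *Xist*, the RNA that coats and silences 1 X chromosome of female cells, was at 82.6 and 97.0 FPKM in E18.5d replicates 1 and 3 and at 58.0 and 70.0 FPKM in P7d replicates 2 and 3, against 0.02 to 0.11 FPKM in the remaining 5. Of the Y chromosome, *Ddx3y*, *Kdm5d*, *Uty* and *Eif2s3y* were listed at 0 in those 4 hearts. Since all P1d hearts lacked *Xist*, sex was unevenly spread over the stages, and the differences called for genes averaging 1 FPKM or more, and the counts and medians of the lists, are also given without the 4 hearts. This leaves 1 E18.5d and 1 P7d heart, which are assumed to vary like the others. The tissue label held: the 7 cardiomyocyte markers summed to 32788, 30788 and 30523 at E18.5d, 35873, 34142 and 39238 at P1d and 36030, 37886 and 36953 at P7d (FPKM), *Myl2* was the most abundant and no marker was at 0. In whole hearts, fewer cells of a type and less RNA per cell cannot be told apart.

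Glucocorticoids enter cells and bind a receptor held by heat shock protein chaperones, which then moves to the nucleus and acts on genes near its binding sites. In tissues, the ligand is regenerated or inactivated by 2 dehydrogenases, and the mineralocorticoid receptor, which is related, binds it as well. The hormone rises before birth and the receptor is known to take part in maturation of the foetal heart.

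*Nr3c1* (ENSMUSG00000024431.14, chromosome 18 of GRCm38, 39410545 to 39519421, minus strand), which encodes the glucocorticoid receptor, was at 25.9, 27.6 and 26.6 FPKM in E18.5d hearts, 28.1, 26.2 and 34.1 in P1d hearts and 40.9, 37.6 and 40.0 in P7d hearts (replicates 1, 2 and 3 in this order here and for the other genes). The 3 P7d hearts lay above all E18.5d and P1d hearts, while E18.5d and P1d hearts overlapped and P1d replicate 3 was the highest of its stage. Mean levels with SD (n = 3) were 26.7 ± 0.854, 29.5 ± 4.10 and 39.5 ± 1.70 FPKM in the order of the stages. Differences were tested with limma, a linear model that shares variance between genes, on log2(FPKM + 1), a scale that understates changes of low genes. The p-values were adjusted for 13618 genes by the method of Benjamini and Hochberg, which controls the share of false calls, with a threshold of 0.05. *Nr3c1* had more transcript at P7d than at E18.5d (log2 change 0.55, standard error 0.09, adjusted p = 0.000925) and than at P1d (0.42, adjusted p = 0.00474), and its change at P1d against E18.5d was 0.13 (limma, adjusted p = 0.273). With the *Xist* hearts left out the 3 values were 0.55, 0.47 and 0.08, none past the threshold.

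*Nr3c2* (ENSMUSG00000031618.13, chromosome 8 of GRCm38, 76899442 to 77245012, plus strand), which encodes the mineralocorticoid receptor, was at 3.80, 3.84 and 4.30 FPKM in E18.5d hearts, 4.56, 4.13 and 4.10 in P1d hearts and 5.11, 5.25 and 4.92 in P7d hearts. It was the less abundant receptor in every heart, and here too the P7d hearts lay above all others while E18.5d and P1d overlapped. The log2 change was 0.29 at P7d against E18.5d (limma, adjusted p = 0.0115, standard error 0.08) and 0.21 at P7d against P1d, where the adjusted p of 0.0492 was just inside the threshold. With the rule on size left aside, the latter call was lost under 13 of 20 alternatives (adjusted p from 0.0131 to 0.405). Among these were the fits lacking P1d replicate 2, P1d replicate 3 or any of the P7d hearts. At P1d against E18.5d the change was 0.08 (limma, adjusted p = 0.420). Leaving out the hearts with *Xist* gave 0.34 and 0.22 at P7d against E18.5d and P1d, and 0.12 at P1d, none past the threshold.

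The progesterone and oestrogen receptors (*Pgr*, *Esr1* and *Esr2*), listed for comparison, were at 0.68 FPKM or less in every heart, below the mean of 1 FPKM that was the minimum for testing.

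*Hsd11b1* (ENSMUSG00000016194.14, chromosome 1 of GRCm38, 193221634 to 193264075, minus strand), the dehydrogenase that regenerates active glucocorticoid from its inert keto form, was at 0.93, 0.79 and 0.96 FPKM in E18.5d hearts, 0.61, 1.13 and 1.14 in P1d hearts and 0.46, 0.20 and 0.22 in P7d hearts. The P7d hearts lay below all others, and P1d replicate 1 lay apart from P1d replicates 2 and 3. Its mean of 0.716 FPKM kept it out of the test, and in a fit of all 27255 genes above 0 the log2 change was -0.55 at P7d against E18.5d (limma, adjusted p = 0.0162) and -0.59 against P1d (adjusted p = 0.0145). Between P1d and E18.5d it was 0.04 (adjusted p = 0.882). No such fit was made without the hearts with *Xist*, where the remaining P7d heart (0.46 FPKM) was the lowest. The gene lies within the span of *Lamb3* on the other strand, which was at 3.14, 3.54 and 3.03 FPKM in E18.5d hearts, 3.06, 3.23 and 4.10 in P1d hearts and 3.00, 2.43 and 3.48 in P7d hearts. Without a stated use of strand, their reads cannot be told apart where they overlap.

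*Hsd11b2* (ENSMUSG00000031891.5, chromosome 8 of GRCm38, 105518755 to 105523988, plus strand), the dehydrogenase that inactivates glucocorticoids and thereby shields the mineralocorticoid receptor, was at 0.10, 0.33 and 0.08 FPKM in E18.5d hearts, 0.30, 0.33 and 0.18 in P1d hearts and 0.23, 0.23 and 0.24 in P7d hearts. The stages overlapped, and its mean was 0.224 FPKM. In the fit of all genes above 0, also made with all hearts only, its log2 change was 0.12 at P1d and 0.08 at P7d against E18.5d and -0.04 at P7d against P1d (limma, adjusted p = 0.353, 0.536 and 0.80).

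*Fkbp5* (ENSMUSG00000024222.16, chromosome 17 of GRCm38, 28399094 to 28517527, minus strand), a co-chaperone that binds the receptor complex and lowers its affinity for hormone, was at 13.9, 15.8 and 14.2 FPKM in E18.5d hearts, 25.4, 33.1 and 11.0 in P1d hearts and 6.64, 5.02 and 5.2 in P7d hearts. P1d replicates 1 and 2 lay above all E18.5d hearts, P1d replicate 3 lay below them, and the P7d hearts were lower than all others. The level thus spread more at P1d (23.1 ± 11.2 FPKM, SD, n = 3) than at E18.5d (14.7 ± 0.989 FPKM) or P7d (5.62 ± 0.888 FPKM). At P1d against E18.5d the log2 change was 0.50 (standard error 0.31, limma, adjusted p = 0.214), and 0.94 without P1d replicate 3 (adjusted p = 0.000795, the lowest over all alternatives, with 0.683 the highest). *Fkbp5* was lower at P7d than at E18.5d (-1.25, adjusted p = 0.00839) and than at P1d (-1.75, adjusted p = 0.00178). On the 5 hearts lacking *Xist* the values were 0.40, -1.14 and -1.53, none past the threshold. Within the span of *Fkbp5*, on the other strand, the small RNA gene *Gm22146* was listed at 6.09 and 2.11 FPKM in E18.5d replicates 1 and 2 and at 0 in the other hearts.

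*Tsc22d3* (ENSMUSG00000031431.13, chromosome X of GRCm38, 140539528 to 140600659, minus strand), which encodes the glucocorticoid-induced leucine zipper protein, was the most abundant of the 10 genes on average and stood at 58.0, 55.7 and 53.8 FPKM in E18.5d hearts, 77.8, 104 and 67.8 in P1d hearts and 39.9, 37.8 and 35.7 in P7d hearts. Each P1d heart was above each E18.5d heart and each P7d heart below, with P1d replicate 2 the highest. Relative to E18.5d the log2 change was 0.54 in P1d hearts (limma, adjusted p = 0.00742, standard error 0.13) and -0.55 in P7d hearts (adjusted p = 0.00639). Relative to P1d, P7d hearts differed by -1.10 (adjusted p = 0.000203). The gene is X-linked. Its E18.5d hearts with *Xist* lay on either side of the remaining heart, and its P7d hearts with *Xist* below the remaining heart. Without them the values were 0.55, -0.47 and -1.02, none past the threshold.

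*Zbtb16* (ENSMUSG00000066687.4, chromosome 9 of GRCm38, 48654297 to 48836222, minus strand), a zinc finger repressor strongly induced by glucocorticoids in many cell types, was at 4.0, 4.13 and 4.99 FPKM in E18.5d hearts, 14.7, 16.0 and 10.9 in P1d hearts and 2.00, 2.03 and 2.62 in P7d hearts. The stages were fully separated, with P1d highest and P7d lowest. Its mean at P1d was 3.18 times that at E18.5d (log2 change 1.46, standard error 0.14, limma, adjusted p = 5.12e-05), and its mean at P7d 0.160 times that at P1d (-2.20, adjusted p = 1.1e-05). At P7d against E18.5d the change was -0.74 (adjusted p = 0.00214). When the hearts with *Xist* were left out, the rise to P1d (1.52) and the difference of P7d from P1d (-2.29) passed and that of P7d from E18.5d (-0.77) did not.

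*Sgk1* (ENSMUSG00000019970.15, chromosome 10 of GRCm38, 21882184 to 21999903, plus strand), a kinase that acts on ion channels and transporters, was at 25.0, 29.3 and 23.9 FPKM in E18.5d hearts, 76.4, 65.4 and 53.6 in P1d hearts and 32.6, 35.1 and 35.2 in P7d hearts. All P1d hearts were above all P7d hearts, which in turn were above all E18.5d hearts. The change was 1.28 at P1d against E18.5d (limma, adjusted p = 4.56e-05, standard error 0.12) and -0.89 at P7d against P1d (adjusted p = 0.000423). The smaller difference between P7d and E18.5d (0.39, adjusted p = 0.0242) did not hold when E18.5d replicate 1 (adjusted p = 0.0708), E18.5d replicate 3 (0.0822), P7d replicate 2 (0.0706) or P7d replicate 3 (0.0668) was removed. It was also lost in the fit of all genes above 0 (0.0552) and on the scale of equal column sums (0.0835). Without all 4 of these hearts, those with *Xist*, it was 0.15 (adjusted p = 0.748, the highest over all alternatives, with 0.00419 the lowest). The other 2 values were then 1.11 and -0.96, also not past the threshold.

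*Klf9* (ENSMUSG00000033863.1, chromosome 19 of GRCm38, 23141226 to 23168134, plus strand), a Krüppel-like transcription factor, was at 3.68, 4.18 and 4.46 FPKM in E18.5d hearts, 21.5, 24.3 and 20.7 in P1d hearts and 10.3, 11.1 and 9.52 in P7d hearts. The stages were again separated, in the order E18.5d, P7d, P1d. Its mean at P1d was 5.40 times that at E18.5d (log2 change 2.18, standard error 0.09, limma, adjusted p = 8.06e-07), the largest change among the 10 genes in that comparison. From P1d to P7d its log2 change was -1.03 (adjusted p = 4.2e-05), and P7d remained 1.15 above E18.5d (adjusted p = 1.33e-05). With the hearts that had *Xist* removed, the change at P1d was 2.16 and passed, and those at P7d, 1.13 against E18.5d and -1.03 against P1d, did not.

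*Klf15* (ENSMUSG00000030087.11, chromosome 6 of GRCm38, 90462576 to 90475238, plus strand), a related factor that controls amino acid and lipid metabolism in heart and skeletal muscle, was at 8.37, 9.42 and 8.02 FPKM in E18.5d hearts, 21.6, 23.4 and 12.5 in P1d hearts and 4.18, 3.89 and 3.90 in P7d hearts. All P1d hearts were above the E18.5d hearts and all P7d hearts below, and P1d replicate 3 was closer to the E18.5d hearts than to P1d replicates 1 and 2. Compared with E18.5d it changed by 1.02 in P1d hearts (limma, adjusted p = 0.00194, standard error 0.19) and -0.94 in P7d hearts (adjusted p = 0.0028), on the log2 scale. P7d and P1d hearts were -1.97 apart (adjusted p = 6.87e-05). Removal of the hearts with *Xist* gave 0.90, -1.01 and -1.91, none past the threshold.

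**Figure D1:**
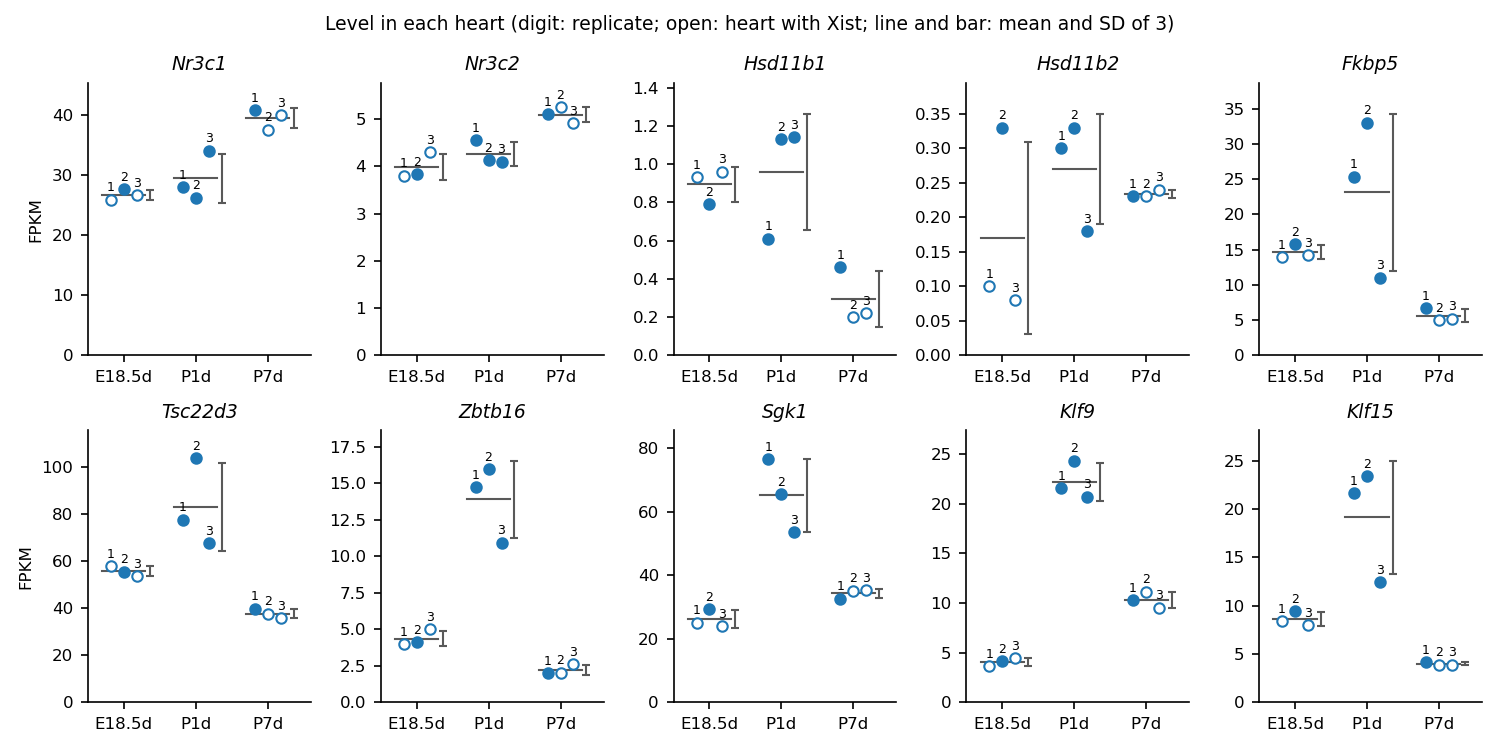
FPKM of each of the 10 genes (vertical axis, from 0) in each heart by stage (horizontal axis); digits are replicate numbers, open circles hearts with *Xist*, lines stage means and bars the SD of 3 hearts. The 6 response genes have their highest mean at P1d, from 13.9 FPKM for *Zbtb16* to 83.1 FPKM for *Tsc22d3*.

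Counted together at P1d against E18.5d, 5 of the 8 genes tested were higher and 0 were lower by limma (0 also at an unadjusted p under 0.05), while 18.4% of all genes tested were higher and 27.6% lower. The 5 were *Tsc22d3*, *Zbtb16*, *Sgk1*, *Klf9* and *Klf15*. The median log2 change of the 8 was 0.78, against -0.06 over all genes. In the fit lacking the hearts with *Xist* 2 were higher, *Zbtb16* and *Klf9*.

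At P7d against E18.5d, 4 of the 8 were higher (*Nr3c1*, *Nr3c2*, *Sgk1* and *Klf9*) and 4 lower (*Fkbp5*, *Tsc22d3*, *Zbtb16* and *Klf15*), against 12.5% and 36.9% of all genes. The median was -0.13, against -0.17 over all genes. Both receptors were thus on the side of the higher genes and 4 of the 6 response genes on the lower. On the scale of equal column sums, 2 were higher, since *Nr3c2* (0.26) and *Sgk1* (0.35) did not pass, and without the hearts with *Xist* 0 passed in either direction.

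At P7d against P1d, 2 were higher (both receptors) and 6 lower (all 6 response genes), against 15.5% and 28.6% of all genes, with a median of -1.06 against -0.09. On the 5 hearts without *Xist* 0 were higher and 1, *Zbtb16*, was lower. The 3 comparisons share hearts, since each stage enters 2 of them, and are not independent. For all genes, the split depended on the scale. For P1d against E18.5d 2505 were higher and 3755 lower as deposited, or 3154 and 3112 with median of ratios. At P7d against E18.5d these were 1706 and 5025, or 2905 and 2848, and at P7d against P1d 2112 and 3901, or 2986 and 2700. With 3 hearts against 3, an exact permutation test of a single gene cannot give a two-sided p under 0.1.

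**Figure D2:**
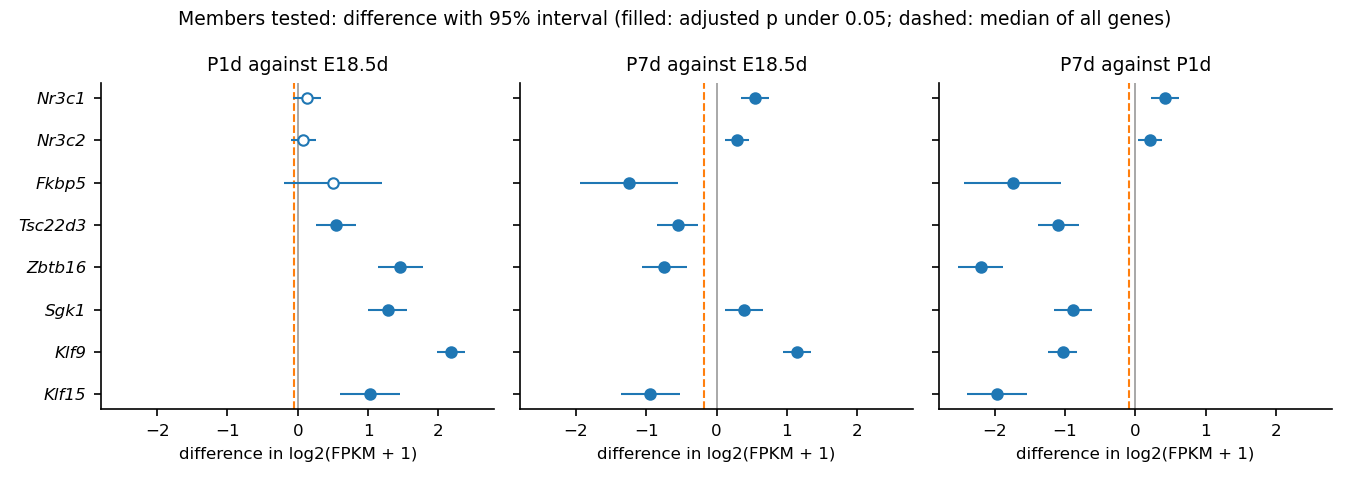
Difference in mean log2(FPKM + 1) (horizontal axis) of the 8 genes tested, with 95% intervals from limma, in each comparison; filled circles have an adjusted p under 0.05 and the dashed line is the median of all 13618 genes. *Klf9* at P1d against E18.5d (2.18) and *Zbtb16* at P7d against P1d (-2.20) lie farthest from 0.

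The hearts can also be ordered by the mean of the 6 response genes, each taken as log2(FPKM + 1) relative to its mean over the 9 hearts. This mean was -0.33, -0.22 and -0.29 in the E18.5d hearts, 1.00, 1.16 and 0.49 in the P1d hearts and -0.57, -0.62 and -0.62 in the P7d hearts. P1d replicate 3 was above every heart of the other stages and below P1d replicates 1 and 2, and the P7d hearts lay below the E18.5d hearts.

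Other genes were taken in lists, which are given by counts and medians beside those of all genes and were not tested as sets. These lists, like the genes counted above, were chosen with earlier results of these data known. Their counts are therefore a description and not an independent check of the genes counted above. Of 30 other genes known to respond to glucocorticoids, 28 were tested. At P1d against E18.5d, 21 of them were higher and 0 lower by limma, against 18.4% and 27.6% of all genes. Their median was 0.83, against -0.06 over all genes. At P7d against E18.5d, 8 were higher and 5 lower, against 12.5% and 36.9% (median -0.0032 against -0.17). At P7d against P1d 2 were higher and 17 lower, against 15.5% and 28.6% (-0.59 against -0.09). Median of ratios gave 11 higher and 4 lower at P7d against E18.5d and a median of 0.16. Leaving the hearts with *Xist* out, these counts were 4 and 0, 3 and 0, and 0 and 2, while the medians were 0.77, -0.02 and -0.62. Fewer of all genes were called in that fit as well (239 higher and 584 lower, 93 and 101, and 75 and 104). The 2 higher at P7d against P1d became 1 when P1d replicate 1 or 3 or P7d replicate 1 or 2 was omitted. On the same centred scale, their mean was -0.42, -0.34 and -0.41 in the E18.5d hearts, 0.69, 0.75 and 0.30 in the P1d hearts and -0.16, -0.20 and -0.21 in the P7d hearts, with P1d replicate 3 again the lowest of its stage.

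The period gene *Per1*, which responds to glucocorticoids and belongs to the clock, was at 16.5, 18.6 and 17.0 FPKM in E18.5d hearts, 86.2, 104 and 72.7 in P1d hearts and 8.54, 8.95 and 6.65 in P7d hearts. P1d hearts were highest and P7d hearts lowest without overlap (log2 change 2.26 at P1d against E18.5d and -3.29 at P7d against P1d, limma, adjusted p = 3.78e-06 and 2.11e-06). The metallothionein gene *Mt2* was at 23.2, 29.1 and 30.2 FPKM in E18.5d hearts, 61.8, 70.1 and 43.9 in P1d hearts and 5.93, 3.12 and 6.04 in P7d hearts, again highest at P1d and lowest at P7d (1.05 and -3.32, adjusted p = 0.00474 and 1.42e-05). Without the hearts with *Xist*, *Per1* had 2.16 and -3.20 and *Mt2* 0.96 and -3.08, all past the threshold but *Mt2* at P1d.

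*Pdk4*, a kinase that restrains pyruvate oxidation, and *Angptl4*, an inhibitor of lipoprotein lipase, differed from these. *Pdk4* was at 11.2, 11.2 and 12.1 FPKM in E18.5d hearts, 176, 135 and 108 in P1d hearts and 135, 117 and 132 in P7d hearts, and *Angptl4* at 1.69, 2.17 and 2.14 FPKM in E18.5d hearts, 36.5, 20.2 and 21.7 in P1d hearts and 31.4, 25.6 and 23.4 in P7d hearts. Both rose from E18.5d to P1d (log2 change 3.47 and 3.13, limma, adjusted p = 9.02e-07 and 5.17e-06) and also differed between E18.5d and P7d (3.37 and 3.21, adjusted p = 3.94e-07 and 3.24e-06), with P1d and P7d hearts overlapping. Fitted without the hearts with *Xist*, the rises to P1d were 3.50 and 3.05 and passed, as did those to P7d (3.48 and 3.35). Both genes also respond to fatty acids, and the part of each signal was not tested.

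**Figure D3:**
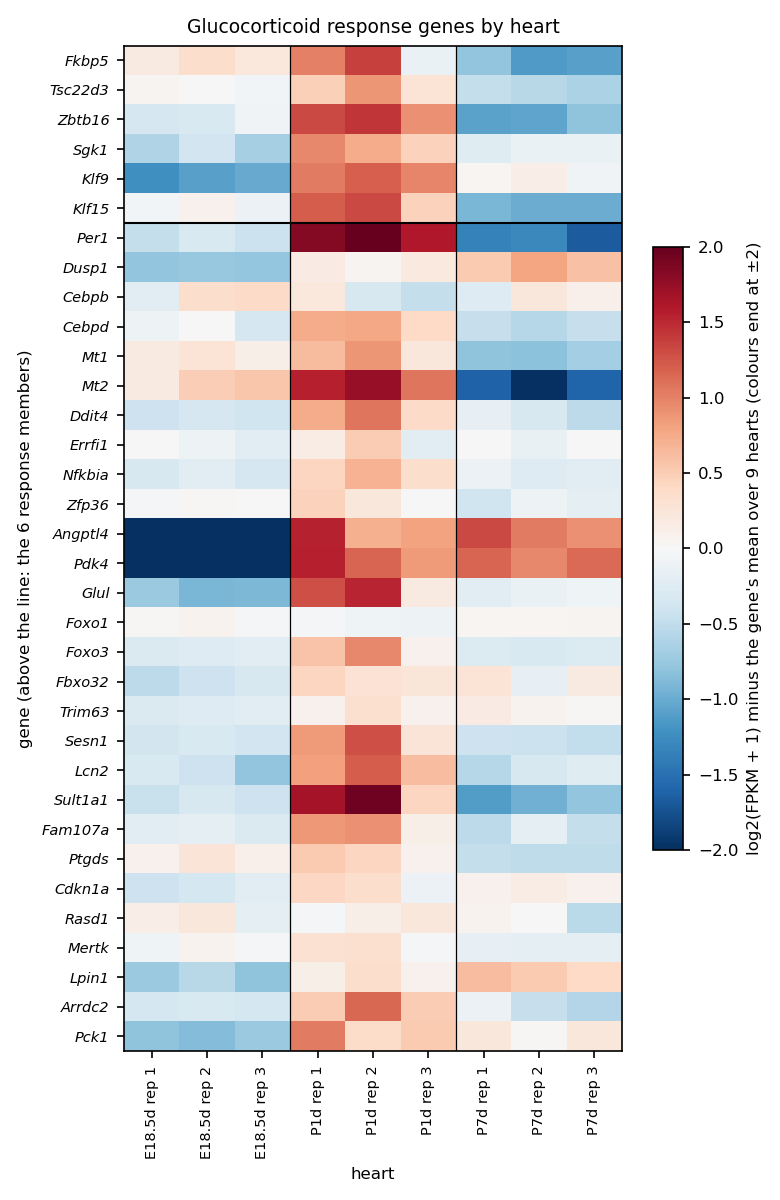
Colours give log2(FPKM + 1) minus the gene's mean over 9 hearts for the 6 response genes (above the line) and the 28 other response genes tested (below); columns are hearts, and colours end at 2 in either direction. P1d replicate 3 is paler than P1d replicates 1 and 2 for many genes, such as *Fkbp5* (11.0 against 25.4 and 33.1 FPKM).

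The 12 receptor chaperones and co-chaperones were all tested. At P1d against E18.5d 0 were higher and 12 lower by limma, at P7d against E18.5d 0 and 9, and at P7d against P1d 3 and 2, against 18.4% and 27.6%, 12.5% and 36.9%, and 15.5% and 28.6% of all genes. Their medians were -0.38, -0.55 and -0.09, against -0.06, -0.17 and -0.09 over all genes. With median of ratios 10 were lower at P1d, 1 was higher and 8 lower at P7d against E18.5d, and 5 and 2 at P7d against P1d, with a median of 0.02. With the *Xist* hearts left out 3 were lower at P1d and 1 at P7d against E18.5d, and 0 passed at P7d against P1d (medians -0.41, -0.60 and -0.10). *Hsp90aa1*, an inducible form of the chaperone that binds the receptor, was at 72.3, 83.8 and 93.0 FPKM in E18.5d hearts, 43.2, 47.5 and 47.8 in P1d hearts and 36.5, 41.2 and 41.2 in P7d hearts, and *Stip1*, which links it to another chaperone, at 106, 107 and 105 FPKM in E18.5d hearts, 46.6, 41.9 and 55.9 in P1d hearts and 57.9, 59.0 and 61.9 in P7d hearts. In both genes the E18.5d hearts lay above all others (log2 change at P1d -0.83 and -1.13, adjusted p = 0.000126 and 1.75e-05). *Ppid* and *Ptges3*, a co-chaperone of the cyclophilin family and the co-chaperone p23, were lower at P1d as well (-0.99 and -0.76, adjusted p = 4.09e-05 and 0.000297). In the fit lacking the hearts with *Xist* the P1d values of these 4 genes were -0.85, -1.14, -0.95 and -0.73, and the last did not pass.

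The other genes of corticosteroid supply and metabolism numbered 14, of which 7 were tested. *Cyp11b1* and *Cyp11b2*, which make the final steps of corticosterone and aldosterone synthesis, were listed at 0 in every heart, and *Serpina6*, which encodes corticosteroid-binding globulin, was at 0.03 FPKM in P1d replicate 3 and at 0 elsewhere. *Abcb1a*, which encodes a drug and steroid exporter, was at 1.80, 1.69 and 2.13 FPKM in E18.5d hearts, 2.63, 2.47 and 2.44 in P1d hearts and 4.62, 3.59 and 5.12 in P7d hearts, and rose at P7d (log2 change 0.91 against E18.5d, limma, adjusted p = 0.000240). *Srd5a1*, a steroid reductase, was lower at P1d than at E18.5d (-0.53, adjusted p = 0.00425). On the 5 hearts without *Xist* these were 1.06 and -0.60 and did not pass. By comparison the list had 0 higher and 1 lower, 1 and 0, and 1 and 0 genes (P1d against E18.5d, P7d against E18.5d, P7d against P1d), against 18.4% and 27.6%, 12.5% and 36.9%, and 15.5% and 28.6% of all genes, and 0 in all without the hearts with *Xist* (medians 0.04, -0.15 and -0.0050). The medians were 0.05, -0.10 and -0.07, against -0.06, -0.17 and -0.09 over all genes, and with median of ratios 0.12, 0.08 and 0.03. Omitting P1d replicate 3 gave 2 higher at P1d against E18.5d and 3 lower at P7d against P1d, and omitting P7d replicate 2 gave 1 higher at P1d.

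Among 13 coregulators of nuclear receptors, 3 rose and 4 fell from E18.5d to P1d, 2 and 6 from E18.5d to P7d, and 2 and 2 from P1d to P7d, against 18.4% and 27.6%, 12.5% and 36.9%, and 15.5% and 28.6% of all genes. Their medians were -0.05, -0.17 and -0.12, against -0.06, -0.17 and -0.09 over all genes. These counts depended on the scale: they were 4 and 3, 3 and 1, and 2 and 1 with median of ratios and 0 and 4, 1 and 2, and 1 and 0 with equal sums. Omission of E18.5d replicate 2 or P7d replicate 2 left 3 lower at P7d against E18.5d. Between P1d and P7d, 1 was higher when E18.5d replicate 2, P1d replicate 2 or P7d replicate 2 or 3 was omitted. There, 1 was lower for E18.5d replicate 2, P1d replicate 1 or P7d replicate 2 or 3, and 4 for P1d replicate 3. Without the hearts with *Xist* all were 0 (medians -0.0055, -0.14 and -0.05). *Tgfb1i1*, a coactivator of the family of focal adhesion proteins, was at 43.4, 43.9 and 39.6 FPKM in E18.5d hearts, 26.8, 22.8 and 27.4 in P1d hearts and 21.1, 24.0 and 25.5 in P7d hearts. Its E18.5d hearts lay above all others (-0.82 at P7d against E18.5d, limma, adjusted p = 9.72e-05). *Smarca4*, the motor of a chromatin remodelling complex, fell from E18.5d to P1d (-0.52, adjusted p = 0.000207). *Smarcd1* of the same complex was higher at P1d (0.44, adjusted p = 0.000589), though not with equal sums (0.28). With the *Xist* hearts left out these values were -1.03, -0.53 and 0.46, none past the threshold.

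Paralogues of the response genes did not move as a block. Of 10 other Krüppel-like factor genes tested (of 15), 6 rose and 2 fell from E18.5d to P1d, 4 and 2 from E18.5d to P7d, and 2 and 4 from P1d to P7d, against 18.4% and 27.6%, 12.5% and 36.9%, and 15.5% and 28.6% of all genes. Their medians were 0.46, 0.10 and -0.00055 (the last 0.10 with median of ratios), against -0.06, -0.17 and -0.09 over all genes. At P7d against E18.5d 5 rose and 0 fell with median of ratios. Leaving out the hearts with *Xist* left 2 higher and 0 lower at P1d and 0 in the other comparisons (medians 0.38, 0.17 and -0.08). In place of 2, 1 fell to P1d when any E18.5d heart, P1d replicate 1 or 2 or P7d replicate 1 was omitted, and 1 fell from E18.5d to P7d for E18.5d replicates 2 and 3 and P7d replicates 1 and 2, each omitted singly. From P1d to P7d, 1 rose when P7d replicate 3 was omitted. *Klf11* was at 6.57, 8.08 and 8.76 FPKM in E18.5d hearts, 34.4, 27.5 and 27.2 in P1d hearts and 15.8, 14.5 and 14.7 in P7d hearts, and *Klf10* at 10.6, 10.4 and 9.21 FPKM in E18.5d hearts, 33.0, 34.4 and 29.0 in P1d hearts and 18.6, 15.2 and 15.4 in P7d hearts. In both, the order of the stages was that of *Klf9*, with E18.5d lowest, P1d highest and no overlap (log2 change at P1d 1.80 and 1.58, limma, adjusted p = 4.84e-06 and 4.26e-06). *Klf6* was highest at P1d and fell to P7d (-0.83, adjusted p = 0.000131), while *Klf4* was higher at both P1d and P7d than at E18.5d (0.71 and 0.72, adjusted p = 0.000323 and 0.000275). Of these, the P1d values of *Klf11* and *Klf10* passed without the hearts with *Xist* (1.75 and 1.54), and the values given above for *Klf6* (-0.93) and *Klf4* (0.59 and 0.44) did not.

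Of 12 other FK506-binding protein genes tested, 2 rose and 6 fell from E18.5d to P1d, 1 and 7 from E18.5d to P7d, and 0 and 3 from P1d to P7d, against 18.4% and 27.6%, 12.5% and 36.9%, and 15.5% and 28.6% of all genes. Their medians were -0.21, -0.31 and -0.05 (the last 0.05 with median of ratios), against -0.06, -0.17 and -0.09 over all genes. With median of ratios 3 rose and 6 fell, 3 and 5, and 3 and 1, and with the hearts with *Xist* left out 1 and 2 at P1d and 0 in the other comparisons (medians -0.40, -0.39 and 0.01). From P1d to P7d, 2 rose when P1d replicate 3 was omitted and 1 fell when P7d replicate 3 was. *Fkbp10*, a foldase of collagen in the endoplasmic reticulum, was at 43.3, 39.2 and 35.1 FPKM in E18.5d hearts, 59.4, 69.2 and 63.2 in P1d hearts and 51.8, 52.4 and 46.9 in P7d hearts, highest at P1d (0.69 against E18.5d, limma, adjusted p = 0.000242). *Fkbp14*, *Fkbp3* and *Fkbp2* fell from E18.5d to P1d (-0.86, -0.79 and -0.61, adjusted p = 4.27e-05, 8.66e-05 and 0.00062). In the fit lacking the hearts with *Xist* *Fkbp10* had 0.69 and the other 3 -0.85, -0.74 and -0.82, all past the threshold but *Fkbp3*.

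Of the other *Sgk* and *Tsc22d* genes, 4 of 5 were tested, and *Sgk2* was listed at 0 in every heart. *Tsc22d4* was at 66.2, 62.1 and 56.8 FPKM in E18.5d hearts, 85.4, 95.2 and 86.9 in P1d hearts and 109, 107 and 103 in P7d hearts, so that it rose from E18.5d over P1d to P7d (0.77 at P7d against E18.5d, limma, adjusted p = 2.85e-05), an order that *Tsc22d3* did not have. *Tsc22d2* was lower at P7d than at E18.5d (-0.50, adjusted p = 0.00123), and *Sgk3*, at 7.51 to 9.69 FPKM, passed in no comparison. The list had 1 higher and 0 lower genes at P1d against E18.5d and 1 and 1 in each of the other comparisons, against 18.4% and 27.6%, 12.5% and 36.9%, and 15.5% and 28.6% of all genes. Their medians were 0.01, -0.11 and -0.13, against -0.06, -0.17 and -0.09 over all genes, and 0.06 in place of -0.11 with median of ratios. From P1d to P7d, 0 passed when P1d replicate 1 was omitted, and 0 were higher and 2 lower when P7d replicate 1 was. On the 5 hearts without *Xist* 0 passed (medians -0.0083, -0.09 and -0.05), with 0.80 for *Tsc22d4* and -0.47 for *Tsc22d2* at P7d against E18.5d.

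Of 8 genes of the mineralocorticoid response in kidney, 3 were tested, with 0 higher in any comparison and 2, 1 and 1 lower at P1d against E18.5d, P7d against E18.5d and P7d against P1d, against 18.4% and 27.6%, 12.5% and 36.9%, and 15.5% and 28.6% of all genes. Their medians were -0.22, -0.15 and 0.06, against -0.06, -0.17 and -0.09 over all genes. The P1d count rests on *Nedd4l* and on *Atp1b1*, a sodium pump subunit gene, which was at 113, 113 and 115 FPKM in E18.5d hearts, 97.1, 88.8 and 109 in P1d hearts and 95.6, 103 and 108 in P7d hearts. Its change of -0.22 (limma, adjusted p = 0.0453, with 0.00886 to 0.377 over the alternatives) held under 6 of 21. It was lost, and the count was 1, with median of ratios and when any E18.5d heart, P1d replicate 1 or 2, or P7d replicate 2 or 3 was omitted. With P1d replicate 3 omitted, 1 was higher at P7d against P1d. The ubiquitin ligase gene *Nedd4l*, a substrate of the *Sgk1* kinase, was at 13.4, 13.3 and 12.7 FPKM in E18.5d hearts, 9.80, 9.26 and 9.62 in P1d hearts and 7.26, 7.45 and 7.71 in P7d hearts, falling from stage to stage (-0.74 at P7d against E18.5d, limma, adjusted p = 1.56e-05). The sodium channel genes *Scnn1a*, *Scnn1b* and *Scnn1g* were at 0.69 FPKM or less. Without the hearts with *Xist* 0 genes passed (medians -0.21, -0.25 and -0.03), with -0.79 for *Nedd4l*.

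Of 8 metabolic and channel genes known as targets of *Klf15*, 7 were tested, with 2 higher and 1 lower at P1d against E18.5d, 3 and 3 at P7d against E18.5d, and 2 and 4 at P7d against P1d, against 18.4% and 27.6%, 12.5% and 36.9%, and 15.5% and 28.6% of all genes. Their medians were 0.26, 0.16 and -0.50, against -0.06, -0.17 and -0.09 over all genes. With equal sums 3 were lower at P1d. Leaving out the hearts with *Xist* left 0 at P1d and 1 lower in each of the other comparisons (medians 0.32, 0.21 and -0.46). At P1d 2 were lower when P1d replicate 2 was omitted and 4 higher when P1d replicate 3 was, and at P7d against P1d 1 was higher when P7d replicate 1 was. *Bckdha*, a subunit of the branched-chain keto acid dehydrogenase, was at 21.5, 23.0 and 20.3 FPKM in E18.5d hearts, 53.9, 63.1 and 43.3 in P1d hearts and 37.9, 32.3 and 31.0 in P7d hearts, highest at P1d and in its replicate 2 (1.25 against E18.5d, limma, adjusted p = 7.05e-05). *Aldh6a1*, which acts in valine breakdown, fell from P1d to P7d (-1.11, adjusted p = 0.000249), as did *Bckdhb* (-0.96, adjusted p = 9.46e-06). *Kcnip2*, a subunit of a potassium channel, was at 31.4, 29.5 and 31.2 FPKM in E18.5d hearts, 37.7, 45.6 and 29.5 in P1d hearts and 53.9, 49.1 and 49.6 in P7d hearts, with P7d highest (0.71 against E18.5d, adjusted p = 0.00158). In the fit lacking the hearts with *Xist* *Bckdhb* passed (-0.98), and *Bckdha* (1.16), *Aldh6a1* (-0.95) and *Kcnip2* (0.85) did not.

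Clock genes are listed because glucocorticoids act on several of them and because the time of day of collection is not given in the sources used here. Of 14 tested, 10 rose and 0 fell from E18.5d to P1d, 8 and 1 from E18.5d to P7d, and 0 and 10 from P1d to P7d, against 18.4% and 27.6%, 12.5% and 36.9%, and 15.5% and 28.6% of all genes. Their medians were 1.22, 0.51 and -0.53, against -0.06, -0.17 and -0.09 over all genes. With the *Xist* hearts left out the counts were 8 and 0, 0 and 0, and 0 and 2 (medians 1.16, 0.48 and -0.42). Omitting P1d replicate 2 gave 1 fall to P1d, E18.5d replicate 1 gave 2 falls from E18.5d to P7d, and P1d replicate 1 gave 1 rise from P1d to P7d. *Nr1d1*, a repressor of the clock, was at 4.37, 2.86 and 3.57 FPKM in E18.5d hearts, 17.0, 14.1 and 24.2 in P1d hearts and 7.92, 8.24 and 7.82 in P7d hearts, and *Dbp*, one of its output factors, at 7.46, 8.17 and 7.94 FPKM in E18.5d hearts, 22.4, 23.8 and 30.0 in P1d hearts and 18.2, 15.4 and 17.8 in P7d hearts. In both, P1d replicate 3 was the highest heart, whereas it was the lowest P1d heart for all 6 response genes. *Nr1d1* and *Dbp* rose at P1d against E18.5d (2.06 and 1.57, limma, adjusted p = 2.74e-05 and 7.59e-06), and *Ciart* fell from P1d to P7d (-1.95, adjusted p = 6.16e-05). All 3 passed without the hearts with *Xist* (2.30, 1.51 and -2.11). The part of the clock in the response genes was not tested.

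Immediate early genes, which mark handling and acute stimulation, were listed as well. Of 9 tested (of 12), 7 rose and 1 fell from E18.5d to P1d, 6 and 1 from E18.5d to P7d, and 2 and 3 from P1d to P7d, against 18.4% and 27.6%, 12.5% and 36.9%, and 15.5% and 28.6% of all genes. Their medians were 0.63, 0.47 and -0.04 (the last 0.05 with median of ratios), against -0.06, -0.17 and -0.09 over all genes. Leaving out the hearts with *Xist* left 3 and 1, 0 and 0, and 0 and 2 (medians 0.68, 0.27 and -0.28). *Atf3* was at 9.22, 6.31 and 13.2 FPKM in E18.5d hearts, 33.5, 32.7 and 19.1 in P1d hearts and 2.95, 7.29 and 8.40 in P7d hearts, with P1d highest (1.49 against E18.5d, limma, adjusted p = 0.00775). Against E18.5d, *Nr4a1* was higher at P1d (1.28, adjusted p = 0.000121), *Fos* at P1d and at P7d (1.20 and 1.16, adjusted p = 0.000244 and 0.00028) and *Egr1* at P7d (1.11, adjusted p = 0.00199). On the 5 hearts without *Xist*, *Atf3* (1.97) and *Nr4a1* (1.39) passed, and *Fos* (1.25 and 0.97) and *Egr1* (0.92) did not. Their part in the other changes was not tested.

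Markers of other cells and tissues also differed between stages or in P1d replicate 3. The 5 macrophage markers summed to 55.4, 52.3 and 42.2 at E18.5d, 77.8, 92.0 and 62.4 at P1d and 59.8, 64.7 and 58.7 at P7d (FPKM). *C1qa* was the most abundant on average, none was at 0 and P1d replicate 3 had the lowest sum of the P1d hearts. In *Csf1r*, *C1qa*, *C1qb* and *Cd68* every P1d heart lay above every E18.5d heart, and P1d replicate 3 was the lowest P1d heart. *Adgre1* did not share this, with 3.58, 3.06 and 2.90 FPKM at E18.5d and 2.07, 3.06 and 2.44 at P1d. The 4 erythroid markers summed to 7555, 5805 and 15460 at E18.5d, 10931, 17111 and 8914 at P1d and 7402, 5715 and 6636 at P7d (FPKM), with *Hbb-bs* the most abundant and none at 0. The 4 liver markers summed to 5.82, 1.57 and 7.54 at E18.5d, 1.34, 29.2 and 2.76 at P1d and 1.12, 0.73 and 1.12 at P7d (FPKM). *Alb* was the most abundant on average and reached 15.9 FPKM in P1d replicate 2, the heart with the highest *Fkbp5* and *Tsc22d3*. *Ttr* exceeded *Alb* in P1d replicate 1 (0.82 against 0.08 FPKM) and in every P7d heart, and *Serpina1a* was at 0 in 4 hearts. The part of macrophages, blood and liver RNA in the levels of the response genes was not tested.

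The 6 lung epithelium markers summed to 56.0, 137 and 1.5 at E18.5d, 222, 0.23 and 0.60 at P1d and 0.00, 0.10 and 0.27 at P7d (FPKM). *Scgb3a2* was the most abundant on average, though at 0 in every P7d heart and below *Sftpa1* in P1d replicate 3. *Sftpc* was at 0.44 FPKM or less, and all 6 were at 0 in P7d replicate 1. Of the 4 adrenal cortex markers, *Star* was the most abundant (0.86 to 1.45 FPKM) and *Cyp11b1* and *Cyp11b2* were at 0 in every heart. The 6 fibroblast markers summed to 1340, 1351 and 1306 at E18.5d, 1028, 1352 and 1072 at P1d and 1544, 1476 and 1519 at P7d (FPKM). The 5 endothelial markers summed to 343, 329 and 314 at E18.5d, 351, 370 and 343 at P1d and 395, 400 and 418 at P7d (FPKM), and the 4 smooth muscle markers to 866, 885 and 716 at E18.5d, 797, 693 and 782 at P1d and 552, 618 and 666 at P7d (FPKM). In these lists *Postn*, *Pecam1* and *Acta2* were the most abundant on average and none was at 0. *Cdh5* exceeded *Pecam1* in P7d replicates 2 and 3, and *Col1a2* exceeded *Postn* in P7d replicate 2. Among the 4 brown fat markers, which summed to 720, 725 and 702 at E18.5d, 620, 774 and 719 at P1d and 888, 946 and 802 at P7d (FPKM), *Cox7a1*, also a heart gene, was the most abundant, *Elovl3* was at 0 in 8 hearts and *Ucp1* was at 5.77 to 7.26 FPKM at P7d. The thymus markers summed to 0.61 FPKM or less with *Ptcra* at 0 in every heart, and those of skeletal muscle to 33.4 to 77.0 FPKM, nearly all from *Acta1*. Their part in the results was not tested.

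Genes of similar course were sought for each of the 6 response genes by the root mean square difference of centred log2(FPKM + 1) over the 9 hearts, among 13610 other genes tested. For *Fkbp5* the nearest were *Ptk2b* (difference 0.23), *Ahsg* (0.24) and *Sost* (0.27). *Ptk2b*, a focal adhesion kinase gene, was at 9.11, 9.51 and 9.03 FPKM in E18.5d hearts, 15.4, 16.6 and 9.20 in P1d hearts and 3.47, 3.69 and 4.17 in P7d hearts, and shares with *Fkbp5* the low P1d replicate 3. *Ahsg*, a liver secretory gene, was at 17.0, 18.2 and 16.4 FPKM in E18.5d hearts, 30.4, 46.4 and 14.9 in P1d hearts and 5.09, 5.01 and 4.92 in P7d hearts, with P1d replicate 2 highest. In the same hearts the liver marker *Alb* was at 3.60, 0.64 and 5.86 FPKM at E18.5d and 0.08, 15.9 and 1.24 at P1d. At P7d *Alb* was at 0.38, 0.01 and 0.01 FPKM. For *Tsc22d3* the nearest genes were *Smoc1* (0.09), *Enpp2* (0.09) and *Tmem120a* (0.10).

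*Zbtb16* and *Klf15* had 2 neighbours in common. *Proser2* was nearest to *Zbtb16* (0.12) and among the 3 nearest to *Klf15* (0.16), as was *Spock2* for both (0.18 and 0.12). *Gstm1*, a glutathione transferase gene, was nearest to *Klf15* (0.12), at 40.0, 46.7 and 37.6 FPKM in E18.5d hearts, 100, 103 and 65.0 in P1d hearts and 23.4, 26.0 and 24.2 in P7d hearts. It was highest in P1d replicates 1 and 2 and lowest at P7d. The last of the 3 for *Zbtb16* was *2410006H16Rik* (0.19).

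Among the nearest to *Sgk1* were *Ppp1r15a* (0.12), a phosphatase regulator of the stress response, and *Gm4285* (0.13). *Ppp1r15a* was at 9.96, 9.81 and 8.90 FPKM in E18.5d hearts, 25.6, 26.5 and 20.3 in P1d hearts and 11.4, 12.9 and 15.5 in P7d hearts, separated by stage in the order of *Sgk1*. For *Klf9* the nearest were *Retsat* (0.16), a retinol saturase gene, *Gm17251* (0.19) and *Atcayos* (0.21), both noncoding. *Retsat* was at 8.25, 9.27 and 8.25 FPKM in E18.5d hearts, 35.3, 39.9 and 27.8 in P1d hearts and 18.0, 19.1 and 17.7 in P7d hearts, again with E18.5d lowest and P1d highest.

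Promoters of the 10 genes were searched for the receptor's binding motif. RefSeq windows of GRCm38.p6, from 250 bases before to 50 after a transcript start, were matched by symbol for 7 of the 10 genes (14 windows); those of *Nr3c1*, *Hsd11b2* and *Zbtb16* were not in the table. The palindrome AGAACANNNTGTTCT, with N any base and read on both strands, was in 3 of 32851 windows (0.00913%), and 1 of these was a window of *Sgk1*. A single arm, AGAACA, which the palindrome contains, was in 19.0% of all windows and in windows of *Sgk1* and *Tsc22d3*. The stretch upstream of that *Sgk1* start is shown because it holds the palindrome, in capitals, 189 bases before the start (chr10:21993701-21993715). It lies within the gene's span in no annotated exon (chr10:21993640-21993889, plus strand, GRCm38.p6, from RefSeq).
Sgk1: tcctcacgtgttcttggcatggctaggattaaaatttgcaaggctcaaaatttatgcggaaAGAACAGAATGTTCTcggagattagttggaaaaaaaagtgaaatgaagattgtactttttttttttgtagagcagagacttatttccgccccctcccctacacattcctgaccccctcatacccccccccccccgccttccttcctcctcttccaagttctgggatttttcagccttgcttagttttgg

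The E-box CACGTG, to which clock factors and others bind, was in 7.15% of all windows and in windows of *Fkbp5*, *Sgk1* and *Klf15*. The *Klf15* window held 3, of which 2 are in capitals in the bases upstream of the start (chr6:90462326-90462575, plus strand, GRCm38.p6, from RefSeq) and the last crosses the start. This stretch is shown because it holds the motif at 2 places. A match is a description of these letters, and binding was not measured.
Klf15: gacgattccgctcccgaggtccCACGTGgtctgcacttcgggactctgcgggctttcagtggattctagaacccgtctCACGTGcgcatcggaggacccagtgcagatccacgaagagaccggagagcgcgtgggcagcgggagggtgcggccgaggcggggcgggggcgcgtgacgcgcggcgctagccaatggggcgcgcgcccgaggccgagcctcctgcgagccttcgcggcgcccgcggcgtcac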

How the data were processed

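Hearts of C57BL/6J mice were analysed by RNA-seq at 3 stages with 3 biological replicates each. The authors deposited FPKM values of 48820 genes, rounded to 2 decimals, in 1 table, in which every column belonged to a sample. Their processing notes name STAR and the genome builds GRCm38 and mm10, and the counting tool and annotation are not given in the sources used here. Without their versions, 48144 identifiers were found in the GRCm38 annotation GENCODE M21. The samples were grouped by the stage in their labels, and no heart was left out.

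FPKM are not counts. After adding 1 and taking log2, the 13618 genes whose 9 hearts averaged 1 FPKM or more entered a single linear model of all stages (limma 3.58.1, R 4.3.3). The functions were lmFit, contrasts.fit and eBayes with a mean-variance trend, and p-values were adjusted after Benjamini and Hochberg and called under 0.05. Tested on simulated data of 13613 genes, with 200 shifted by 1 on the log2 scale at P1d, the fit called 188 of these and 10 others at P1d against E18.5d, and 0 at P7d against E18.5d. Depth was estimated from low FPKM values as whole multiples of 1 fragment over gene length, with 89.3% to 92.4% of values whole within 0.15 of a fragment, against 30.0% by chance. Hearts of a stage correlated at 0.978 to 0.988 over genes and held few identical values, so all were kept as separate samples.

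The 10 genes and the 12 comparison lists were chosen with earlier results of these data known. From each list, up to 4 genes with the largest change past the threshold and without overlap between the stages were named, and each response gene with a log2 change of at least 1 was given up to 3 of its nearest genes. Other genes, such as *Sgk2*, *Sgk3*, the progesterone and oestrogen receptors and the sodium channels, were named after their values were seen. As alternatives, 0.1 was added in place of 1, all genes above 0 were fitted, or only those averaging 5 FPKM or more. Columns were rescaled to equal sums, to equal sums of protein-coding nuclear genes lacking haemoglobins, by median of ratios, or by quantiles. The model was fitted with no trend, on the pair of stages alone, with replicate number blocking, or with *Xist* above 1 FPKM as a covariate. A log2 change of 1 in size was required, and the hearts with *Xist* together or every heart singly were omitted. Python 3.11.15, numpy 2.4.6, pandas 2.3.3 and matplotlib 3.10.9 were used for levels and figures.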

Additional observations from a re-analysis of the deposited data

How the results depend on the processing

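Over all alternatives, 475 values of single genes kept their direction and side of the threshold, 47 were no longer past it, 1 (*Fkbp5* at P1d without P1d replicate 3) came past it and 2 turned. The turned values were those of *Nr3c1* and *Nr3c2* at P1d against E18.5d, -0.0411 and -0.0585 with columns of equal sum. Neither had passed the threshold, and on that scale the log2 changes of all genes moved by a median of -0.16.

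The number of genes higher at P1d than at E18.5d was 2 without the hearts with *Xist*, in place of 5. At P7d against E18.5d, it was 2 with equal sums, 0 without the hearts with *Xist* and 1 with an absolute log2 change of at least 1, in place of 4. The number lower was 0 and 1 under the last 2 of these, in place of 4. At P7d against P1d, 1 was higher in place of 2 with all genes fitted, with those averaging 5 FPKM or more (which removes *Nr3c2*), with equal sums, only the 2 stages, the replicate block or the *Xist* covariate, 1 to 2 with each heart left out in turn, and 0 without the hearts with *Xist* or with the change of at least 1. The number lower was 1 without the hearts with *Xist*, in place of 6. Fewer samples and 2 residual degrees of freedom enter that fit. The *Xist* covariate moved no other count of the 10 genes. For the rest, the cause was not tested.

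The replicate numbers did not pair the hearts: hearts of the same number correlated at -0.05 to 0.11 in their deviations from the stage means. With the number as a block, *Nr3c2* at P7d against P1d had 0.21 (limma, adjusted p = 0.0803), and no other call of the 10 genes changed. The counts of all genes became 2487 and 3686, 1706 and 4961, and 2040 and 3817.

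At P7d against E18.5d, median of ratios moved the log2 changes of all genes by a median of 0.16. This was 0.14 for equal sums of protein-coding nuclear genes and 0.15 for quantile normalization. At P7d against P1d, equal sums moved these changes by a median of 0.12 and equal sums of protein-coding nuclear genes by 0.12. With equal sums, 1175 genes were higher and 4694 lower at P1d than at E18.5d. With the *Xist* covariate 1607 were higher. For P7d against E18.5d, 2905, 2687 and 2889 were higher and 2848, 2989 and 2937 lower with median of ratios, equal sums of protein-coding nuclear genes and quantiles. At P7d against P1d, 1729, 2415 and 2438 were lower with equal sums, equal sums of protein-coding nuclear genes and the covariate, in place of 3901. Without the hearts with *Xist*, 239, 93 and 75 were higher and 584, 101 and 104 lower in the 3 comparisons, and with a log2 change of 1 in size, 260, 267 and 243 were higher and 456, 383 and 312 lower. Depth limits *Hsd11b2*, and with 3 hearts a stage a p above the threshold does not show that levels were alike.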
